A study of Mus musculus with 24 samples.

Results

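The genes examined were 9 markers of lymphocytes in mouse liver, Themis, Icos, Cd3e, Cd3g, Cd4, Cd8a and Lck of T cells and Cd79a and Ms4a1 of B cells. All probe sets that the platform annotation assigns to 1 of these genes alone were taken, which gave 19 of the 45037 probe sets tested. They measure 8 of the 9 genes, Themis with 4 probe sets, Icos with 3, Cd4 with 2, Cd8a with 5, Ms4a1 with 2, and Cd3e, Cd3g and Cd79a with 1 each. Lck, a kinase that acts directly after the T cell receptor is engaged, has no probe set of its own in the annotation used here and was not analysed. The question was whether Themis follows the other T cell genes.

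RNA of whole liver was hybridised to Affymetrix whole-genome arrays, 1 array per mouse. All 24 mice were male C57BL6/J animals, 8 weeks old at the start, that ate a high-fat western diet with 6% sucrose in the drinking water, so that the controls carried the diet as well. They received a chemically modified siRNA at 1 mg/kg into the tail vein every week for 7 weeks, in lipid nanoparticles that reach mainly hepatocytes. The groups of 8 mice each were siControl, a scrambled unspecific siRNA, and siKeap1-1 and siKeap1-2, which silence Keap1. The methods describe 4 fed and 4 fasted mice per group, which the labels do not tell apart, so the feeding state is part of the spread within each group.

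T cells recognise peptides through the T cell receptor, whose signal is carried into the cell by the CD3 chains with help from the coreceptors CD4 or CD8. Themis is an adaptor of this signalling pathway that is known for its part in the selection of thymocytes, and ICOS is a costimulatory receptor of activated T cells. The liver holds resident and passing lymphocytes between its hepatocytes, and Keap1 is the protein that keeps the transcription factor Nrf2, a driver of antioxidant genes, at a low level.

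The values are log2 signals, on which a difference of 1 is a 2-fold change, and a fold is given only between groups for the same probe set. The brighter Keap1 probe set, 1450746_at, fell by 2.13 with siKeap1-1 and fell by 1.36 with siKeap1-2 (SE 0.11 for each, limma, adjusted p = 2.28e-12 and 1.89e-08), and Nqo1, a target of Nrf2, rose by 2.22 and 1.91. Among the manufacturer's control probe sets, the signal of 18S ribosomal RNA set siControl replicates 1 to 3 (10.34 to 10.77) apart from replicates 4 to 8 (8.86 to 9.54), and reached 10.17 to 11.43 in the siKeap1-1 group and 10.45 to 11.12 in the siKeap1-2 group. Where a call on the 19 probe sets was lost with this probe set as a covariate, or with either set of controls alone, those values are given. The gene lists were not run under these settings.

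Most of the 19 probe sets were dim in this tissue. Each measured gene except Cd3g still had a probe set above the median of all probe sets. The brightest of Themis and of Cd3e were above 83.1% and 76.2% of all probe sets. The mean over all arrays was above the median of all probe sets for 7 of the 19 probe sets, the brightest probe sets of Themis, Icos, Cd3e, Cd4, Cd8a, Cd79a and Ms4a1. On a list of other T cell markers, 9 of 24 measured genes were above that median, against 7 of 7 hepatocyte markers. In RNA of whole liver, fewer cells of a type and less RNA per cell cannot be told apart.

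The sequences before the starts of Themis and Cd3e are shown because these genes were set against each other, Themis as a gene that rose and Cd3e as a defining chain of the T cell receptor complex. They are the 250 bases upstream of the annotated start in RefSeq on GRCm38.p6, Themis from chr10:28668110-28668359 on the plus strand and Cd3e from chr9:45009612-45009861 on the minus strand. Capitals mark matches to the searched motifs on either strand.

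Themis: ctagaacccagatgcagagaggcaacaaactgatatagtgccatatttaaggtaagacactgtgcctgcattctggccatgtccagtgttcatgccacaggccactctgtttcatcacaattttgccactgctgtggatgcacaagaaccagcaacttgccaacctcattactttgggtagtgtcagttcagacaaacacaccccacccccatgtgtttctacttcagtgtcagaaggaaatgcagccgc

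Cd3e: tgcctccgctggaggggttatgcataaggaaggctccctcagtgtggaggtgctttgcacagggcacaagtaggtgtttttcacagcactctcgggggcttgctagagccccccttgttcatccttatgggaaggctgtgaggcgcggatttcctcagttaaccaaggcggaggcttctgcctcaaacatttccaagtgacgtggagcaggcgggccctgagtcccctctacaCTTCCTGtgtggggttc

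The windows searched hold 250 bases before and 50 bases after a start, and 6 of them belong to the genes examined, 2 overlapping windows of Themis and 1 each of Cd3e, Cd3g, Cd8a and Cd79a. The core of the antioxidant response element, which Nrf2 binds, was searched as TGACNNNGC and is in 0 of the 6 windows and in 12.4% of the 32851 windows of all genes. Of motifs for factors of lymphocyte genes, the ETS motif CAGGAAG is in 2 of the 6 windows, those of Cd3e and Cd79a, and in 13.3% of all, and the RUNX motif TGTGGT is in 0 and in 16.8%. The windows of Icos, Cd4 and Ms4a1 were not analysed here.

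Of the 8 measured genes, Themis was the only gene that rose, and it did so with both siRNAs. Icos fell with both siRNAs by its brightest probe set, and Cd4 fell with siKeap1-1. Cd3e, Cd3g, Cd8a, Cd79a and Ms4a1 did not pass the test with either siRNA. By probe set, 4 of 19 were higher and 2 lower with siKeap1-1 than with siControl at an adjusted p under 0.05, where 8.99% of all probe sets passed (4.51% higher and 4.48% lower). With siKeap1-2, 2 were higher and 1 lower, where 6.1% of all passed (3.15% higher and 2.96% lower). By a fold over 2 with an unadjusted p under 0.01 in place of this threshold, 4 passed with siKeap1-1 and 1 with siKeap1-2, where 0.617% and 0.557% of all did. The median log2 difference over the 19 probe sets was -0.11 with siKeap1-1 and 0.02 with siKeap1-2, against 0.02 and 0.00 over all probe sets. Both comparisons use the same siControl mice.

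**Figure D1:**
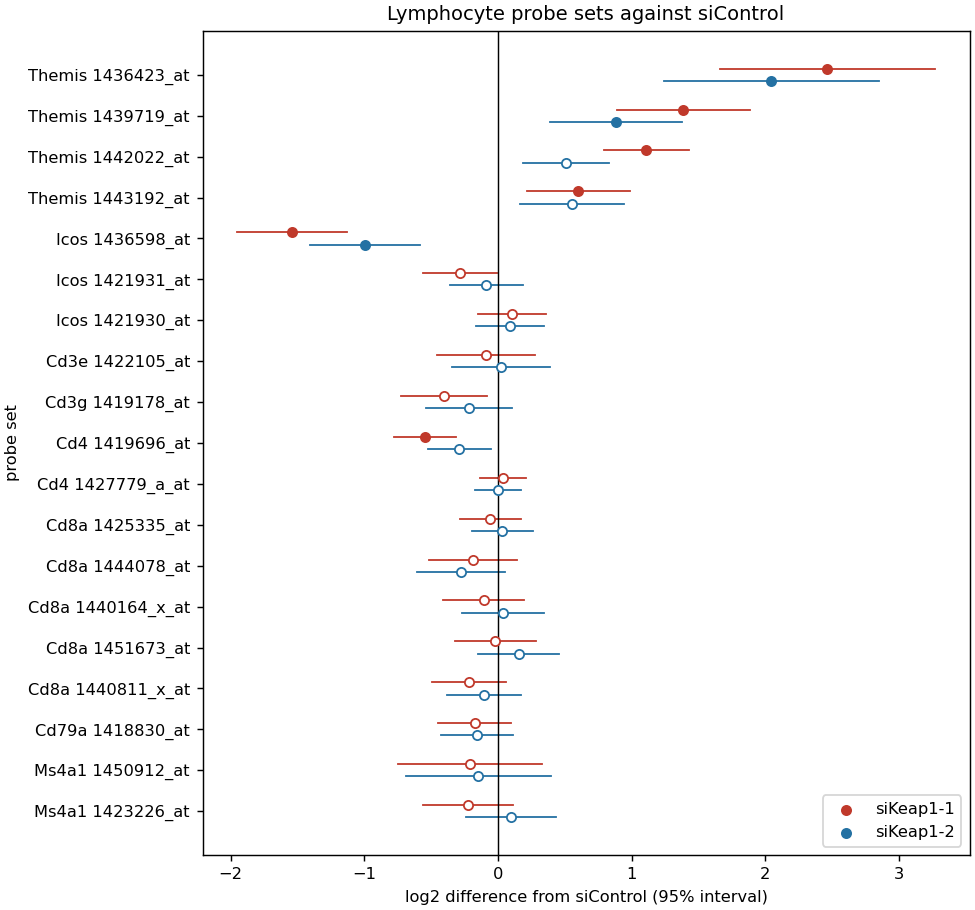
Log2 difference from siControl (horizontal axis) of the 19 lymphocyte probe sets (rows), with siKeap1-1 in red and siKeap1-2 in blue, as points with 95% intervals from limma. Filled points passed an adjusted p of 0.05, as the 4 Themis probe sets did with siKeap1-1 and 2 of them with siKeap1-2, while both Cd3 probe sets, all 5 Cd8a probe sets and those of the B cell genes are open.

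Neither chain of the CD3 complex passed the adjusted threshold against all siControl mice, although Cd3g with siKeap1-1 had an unadjusted p of 0.016 by limma. Cd3e, which encodes the epsilon chain, lay between 8.33 and 9.63 in siControl mice (median 8.65), between 8.31 and 9.22 in siKeap1-1 mice (median 8.68) and between 8.44 and 9.42 in siKeap1-2 mice (median 8.76). The 3 groups overlapped over most of their range. The difference was -0.09 with siKeap1-1 (95% interval -0.45 to 0.28, adjusted p = 0.827) and 0.02 with siKeap1-2 (-0.35 to 0.39, adjusted p = 0.967). Cd3g, which encodes the gamma chain, was dimmer than the median of all probe sets, with 5.43 to 6.82 in siControl mice (median 5.80), 5.06 to 5.83 with siKeap1-1 (median 5.52) and 5.32 to 6.08 with siKeap1-2 (median 5.62). The highest value was that of a single siControl mouse, and the groups overlapped. Its difference was -0.41 with siKeap1-1 (95% interval -0.73 to -0.08, adjusted p = 0.111) and -0.22 with siKeap1-2 (-0.54 to 0.11, adjusted p = 0.475). Against siControl replicates 4 to 8 alone, Cd3g was lower by -0.59 with siKeap1-1 and passed the test (limma, adjusted p = 0.0262), and against replicates 1 to 3 its difference was -0.09 (adjusted p = 0.828).

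Of the coreceptors, Cd4 fell with siKeap1-1 and no Cd8a probe set passed the test. Cd4, whose product binds MHC class II, lay by its brighter probe set 1419696_at between 5.78 and 6.72 in siControl mice (median 6.18), 5.49 to 5.86 in siKeap1-1 mice (median 5.64) and 5.65 to 6.16 in siKeap1-2 mice (median 5.90). The siKeap1-1 values reached only the lowest siControl values, and those of siKeap1-2 overlapped them further. It fell by 0.55 with siKeap1-1 (SE 0.11, adjusted p = 0.00305, 1.46-fold lower), and its difference was -0.29 with siKeap1-2 (SE 0.11, adjusted p = 0.138). The siRNAs did not differ from each other past the threshold (difference -0.26, 95% interval -0.49 to -0.02, adjusted p = 0.482). The dimmer Cd4 probe set 1427779_a_at did not show this, with differences of 0.04 (95% interval -0.14 to 0.21) and 0.00 (-0.17 to 0.17), and the mean over both probe sets was lower by -0.26 with siKeap1-1 (limma, adjusted p = 0.0409).

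Cd8a, whose product binds MHC class I, lay by its brightest probe set 1425335_at between 5.92 and 6.62 in siControl mice (median 6.08), between 5.81 and 6.33 in siKeap1-1 mice (median 6.11) and between 5.69 and 6.60 in siKeap1-2 mice (median 6.18). The groups overlapped throughout. The differences were -0.06 (95% interval -0.28 to 0.17, adjusted p = 0.816) and 0.03 (-0.19 to 0.26, adjusted p = 0.908). The other 4 probe sets had means under 5.1 in every group and differences between -0.28 and 0.16. Of these, 1440811_x_at was lower by -0.44 with siKeap1-1 against siControl replicates 4 to 8 alone (limma, adjusted p = 0.0206) and higher by 0.16 against replicates 1 to 3 (adjusted p = 0.601).

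Icos moved in the direction opposite to Themis. Its brightest probe set 1436598_at lay between 7.35 and 8.39 in siControl mice (median 8.11), between 5.68 and 6.66 in siKeap1-1 mice (median 6.51) and between 6.31 and 7.84 in siKeap1-2 mice (median 7.04). All siKeap1-1 mice were below all siControl mice. The siKeap1-2 mice were too, except replicate 7 (7.84). It fell by 1.54 with siKeap1-1 (SE 0.20, adjusted p = 1.49e-05, 2.91-fold lower) and fell by 0.99 with siKeap1-2 (SE 0.20, adjusted p = 0.00343, 1.99-fold lower), and the difference between the siRNAs was -0.55 (SE 0.20, 95% interval -0.96 to -0.14, adjusted p = 0.359). The call with siKeap1-2 was lost with the 18S covariate (difference -0.63, adjusted p = 0.397) and against siControl replicates 1 to 3 alone (-0.79, adjusted p = 0.207), and was kept against replicates 4 to 8 (-1.11, adjusted p = 0.00237).

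The fall of Icos was seen by 1 of its 3 probe sets. The probe sets 1421931_at and 1421930_at had means between 4.78 and 5.07 in every group, under the median of all probe sets. Their differences were -0.29 (95% interval -0.56 to -0.01, adjusted p = 0.196) and 0.11 (-0.15 to 0.36, adjusted p = 0.667) with siKeap1-1, while with siKeap1-2 they were -0.09 (-0.36 to 0.19) and 0.09 (-0.17 to 0.34). Averaged over the 3 probe sets, Icos was lower by -0.57 with siKeap1-1 (limma, adjusted p = 0.00242), and its difference of -0.33 with siKeap1-2 did not pass the test (adjusted p = 0.0909). After the group means were removed, the correlations between the 3 probe sets over the 24 arrays were 0.40, 0.31 and 0.41. The file of values does not say which transcripts or exons each probe set covers.

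**Figure D2:**
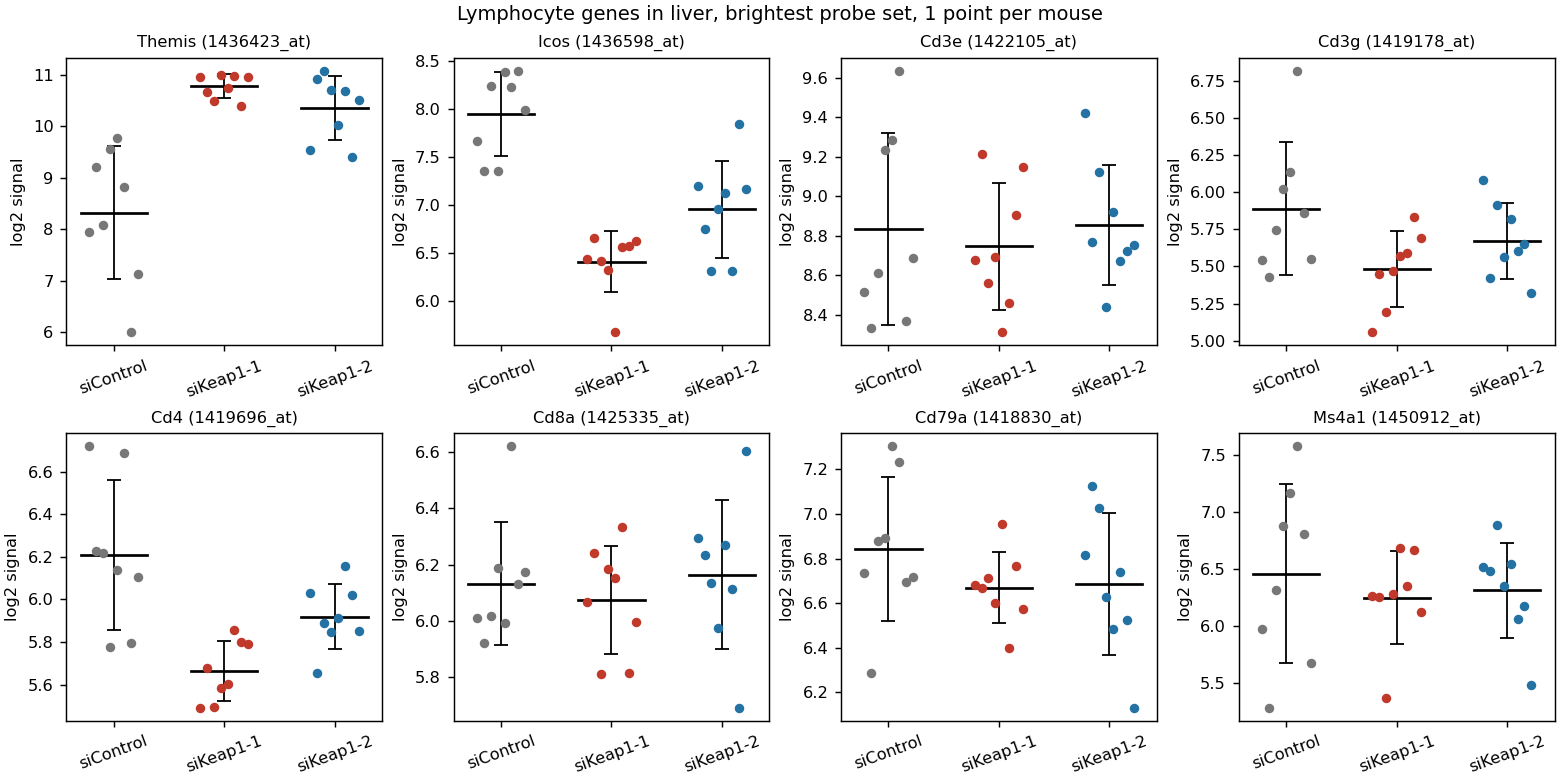
Log2 signal (vertical axis, a separate scale in each panel) of the brightest probe set of the 8 measured genes, with 1 point per mouse, the mean as a bar and the SD as whiskers (n = 8 per group). Themis lies at 10.41 to 11 in the siKeap1-1 group against 5.99 to 9.77 in siControl, Icos lies lower in both siRNA groups, and in the panels of Cd3e, Cd8a, Cd79a and Ms4a1 the groups overlap.

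Themis rose with both siRNAs by its brightest probe set. That probe set, 1436423_at, lay between 5.99 and 9.77 in siControl mice (median 8.46), between 10.41 and 11 in siKeap1-1 mice (median 10.85) and between 9.41 and 11.08 in siKeap1-2 mice (median 10.60). All siKeap1-1 mice were above all siControl mice, and siKeap1-2 mice overlapped the highest controls. It rose by 2.46 with siKeap1-1 (SE 0.39, adjusted p = 0.00019, 5.51-fold) and by 2.04 with siKeap1-2 (SE 0.39, adjusted p = 0.0022, 4.13-fold), and the siRNAs differed by 0.42 (SE 0.39, 95% interval -0.38 to 1.22, adjusted p = 0.796). The spread between mice was widest in the controls, with an SD of 1.29 in siControl, 0.234 in siKeap1-1 and 0.63 in siKeap1-2. Leaving out any 1 array kept the rise within 2.13 to 2.67 for siKeap1-1 and within 1.71 to 2.25 for siKeap1-2. With the 18S covariate the rise with siKeap1-2 was 1.93 and missed the threshold (adjusted p = 0.123), while against siControl replicates 1 to 3 and 4 to 8 alone it was 1.94 and 2.11 (adjusted p = 0.00207 and 0.00452).

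The other 3 Themis probe sets were dim, with means under 6.3 in every group, and pointed the same way. The probe set 1439719_at lay between 4.16 and 5.89 in siControl mice (median 4.73), between 6.03 and 6.59 in siKeap1-1 mice (median 6.16) and between 4.87 and 6.52 in siKeap1-2 mice (median 5.82). As with the brightest probe set, siKeap1-1 mice did not overlap the controls and siKeap1-2 mice did. It rose by 1.39 (SE 0.24, adjusted p = 0.00051) and by 0.88 (SE 0.24, adjusted p = 0.0283), the latter lost against siControl replicates 4 to 8 alone (0.66, adjusted p = 0.121) and with the 18S covariate (1.05, adjusted p = 0.199). The probe set 1442022_at rose by 1.11 with siKeap1-1 (SE 0.15, adjusted p = 4.33e-05) and just missed the threshold with siKeap1-2 (0.51, SE 0.15, adjusted p = 0.0509). The probe set 1443192_at, the dimmest, rose by 0.60 with siKeap1-1 (SE 0.19, adjusted p = 0.0435) and differed by 0.55 with siKeap1-2 (SE 0.19, adjusted p = 0.0798). Its call with siKeap1-1 was lost with the 18S covariate (0.43, adjusted p = 0.462) and against siControl replicates 1 to 3 or 4 to 8 alone (0.54 and 0.64, adjusted p = 0.285 and 0.0778). In contrast to the Icos probe sets, the 4 Themis probe sets varied together among mice of a group, with correlations of residuals from the group means between 0.563 and 0.784 over the 24 arrays, which share their normalization. Whether the siRNAs differed was called for 0 of the 19 probe sets with limma, where 0.162% of all passed (0.0799% higher and 0.0822% lower with siKeap1-1), and 4 had an unadjusted p under 0.05. By fold and unadjusted p, 0 passed, where 0.0577% of all did.

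**Figure D3:**
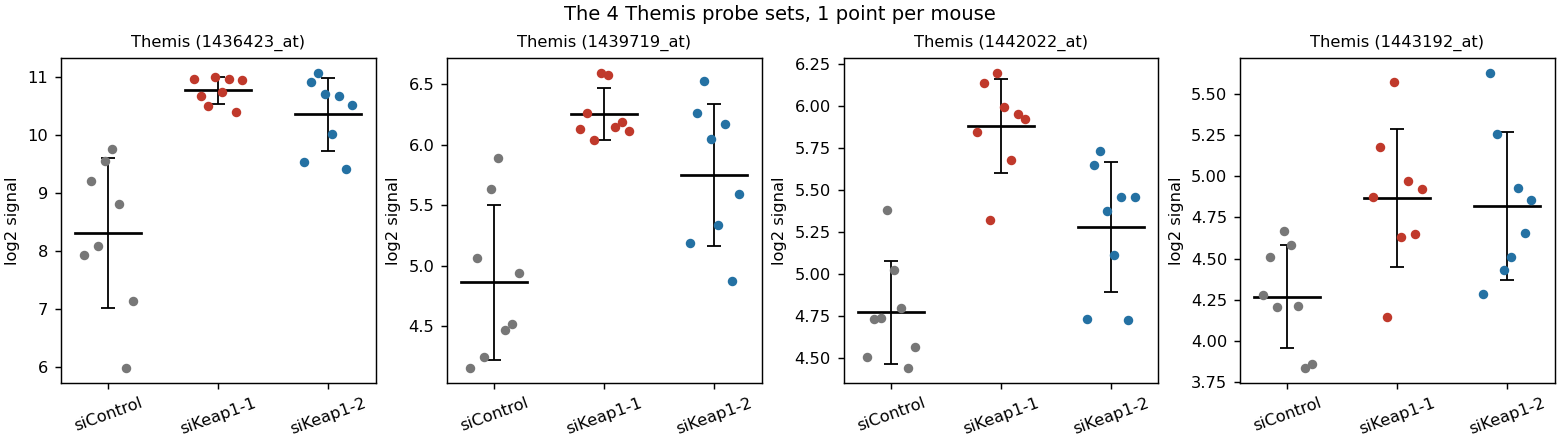
Log2 signal (vertical axis, a separate scale in each panel) of the 4 Themis probe sets, with 1 point per mouse, the mean as a bar and the SD as whiskers (n = 8 per group). In every panel the means of both siRNA groups lie above that of siControl, and the siKeap1-1 mice clear all controls for 1436423_at and 1439719_at.

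Of the 19 probe sets, 3 did not overlap between siKeap1-1 and siControl, 2 of Themis above and 1 of Icos below, where 1.45% of all probe sets did not overlap (0.844% above and 0.602% below). Between siKeap1-2 and siControl 0 of 19 were free of overlap, where 1.21% of all were (0.777% above and 0.435% below). The 13 probe sets not called with siKeap1-1 had differences between -0.41 and 0.11, and the 16 not called with siKeap1-2 between -0.29 and 0.55. Their 95% intervals reached from -0.75 to 0.36 and from -0.69 to 0.94.

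Themis was then set against each other T cell gene within the same mouse, as the difference between the signals of their brightest probe sets. Such a difference carries the unlike sensitivity of the probe sets, so only its change between groups was read. Themis minus Cd3e lay between -2.38 and 0.89 in siControl mice, between 1.46 and 2.52 in siKeap1-1 mice and between 0.11 and 2.27 in siKeap1-2 mice. All siKeap1-1 mice and 6 of 8 siKeap1-2 mice were above all controls. The mean was higher than with siControl by 2.55 with siKeap1-1 (SE 0.41, two-sided exact permutation test over 12870 splits, p = 0.0001554, the smallest it can give) and by 2.02 with siKeap1-2 (SE 0.47, exact permutation p = 0.0014). The change relative to Cd3e was close to the change of Themis itself.

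The difference was also higher with each of the other 4 T cell genes, and most with Icos, which itself fell. With siKeap1-1 the difference was higher by 4.002 for Themis minus Icos, 2.87 for Themis minus Cd3g, 3.01 for Themis minus Cd4 and 2.52 for Themis minus Cd8a, with all 8 mice above all controls and an exact permutation p of 0.0001554 in each. With siKeap1-2 it was higher by 3.04, 2.26, 2.33 and 2.01, with 7, 6, 6 and 5 of 8 mice above all controls. Adjusted over the family of 10 tests, the exact permutation p-values lay between 0.000311 and 0.00155. These tests measure how unlike the changes of the genes were, and since Themis and Icos are among the genes that the study listed as changed on these arrays, they are no independent evidence of the direction of either.

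**Figure D4:**
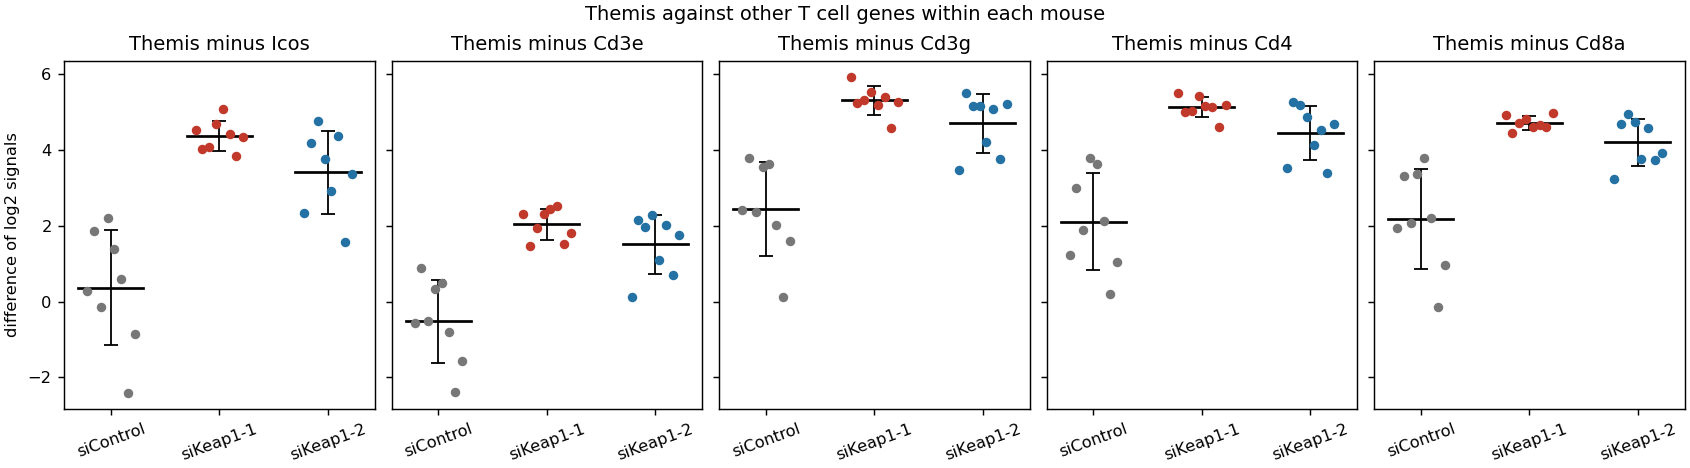
Difference between the log2 signals of Themis and of 5 other T cell genes in the same mouse (vertical axis, a shared scale), with 1 point per mouse, the mean as a bar and the SD as whiskers (n = 8 per group). In each panel all siKeap1-1 mice lie above all siControl mice, and between 5 and 7 of the 8 siKeap1-2 mice do.

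Mice with more Themis than the rest of their group did not have detectably more of the other T cell genes. After the group means were removed, the correlation of Themis with Cd3e was r = 0.30 and rho = 0.20 over the 24 mice (permutation within groups, p = 0.268 and 0.408, adjusted over 5 relations 0.670 and 0.755). Without the 2 arrays farthest from the median of Cd3e r was 0.41, and without the 2 farthest from the median of Themis it was 0.15. Within the groups r was 0.57 in siControl (exact permutation p = 0.137), -0.10 in siKeap1-1 (p = 0.817) and -0.33 in siKeap1-2 (p = 0.426), so the sign did not hold. The r of Themis was 0.12 with Cd3g, 0.05 with Cd4 and 0.11 with Cd8a (rho 0.10, -0.12 and 0.07), with permutation p between 0.621 and 0.883. Without the 2 arrays farthest from the median of Themis these were 0.04, -0.36 and 0.18. With Icos it was -0.45 and rho was -0.41 (permutation p = 0.0434 and 0.0791, adjusted 0.217 and 0.396), and without the 2 arrays farthest from the median of Icos r was -0.43. Within groups, the r of Themis with Icos was -0.39 in siControl, -0.01 in siKeap1-1 and -0.83 in siKeap1-2 (exact permutation p = 0.337, 0.985 and 0.00719, not adjusted). None of the 5 relations passed after adjustment.

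The CD3 and B cell genes varied together more closely, which is given as a description over the 24 arrays with no test. The residuals of Cd3e and Cd3g had r = 0.72 (0.88 in siControl, 0.24 in siKeap1-1 and 0.80 in siKeap1-2), and those of Cd79a and Ms4a1 had r = 0.72 (0.86, 0.24 and 0.77). The closest pair was Cd3g and Ms4a1, a T cell and a B cell gene, with r = 0.81 (0.92, 0.57 and 0.70). The other pairs of these genes were looser and were high in siControl only. Cd3e had r = 0.48 with Cd79a (0.85, -0.21 and 0.31) and 0.55 with Ms4a1 (0.79, -0.04 and 0.46). Cd3g had r = 0.52 with Cd79a (0.81, -0.03 and 0.35). The 18S signal moved with these genes in the siControl group, with r = -0.64 for Cd3e, -0.63 for Cd3g, -0.67 for Cd79a and -0.65 for Ms4a1, against 0.06 for Themis. This was not particular to them, as its r there was -0.58 with Cd8a and -0.57 with Icos, and 0.27 with Cd4. In the siKeap1-1 group the r of 18S was -0.33, 0.73, 0.07 and 0.61 for Cd3e, Cd3g, Cd79a and Ms4a1. In the siKeap1-2 group it was 0.12, 0.26, 0.81 and 0.67, and the part of 18S in their covariation was not tested. Themis had r = 0.27 with Cd79a and 0.17 with Ms4a1, and Icos had -0.11 and 0.11. The first component of the residuals of all probe sets, which held 16.9% of their variance, had r = 0.53 with Themis and -0.53 with Icos, and between -0.12 and 0.24 with the other 6 genes.

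**Figure D5:**
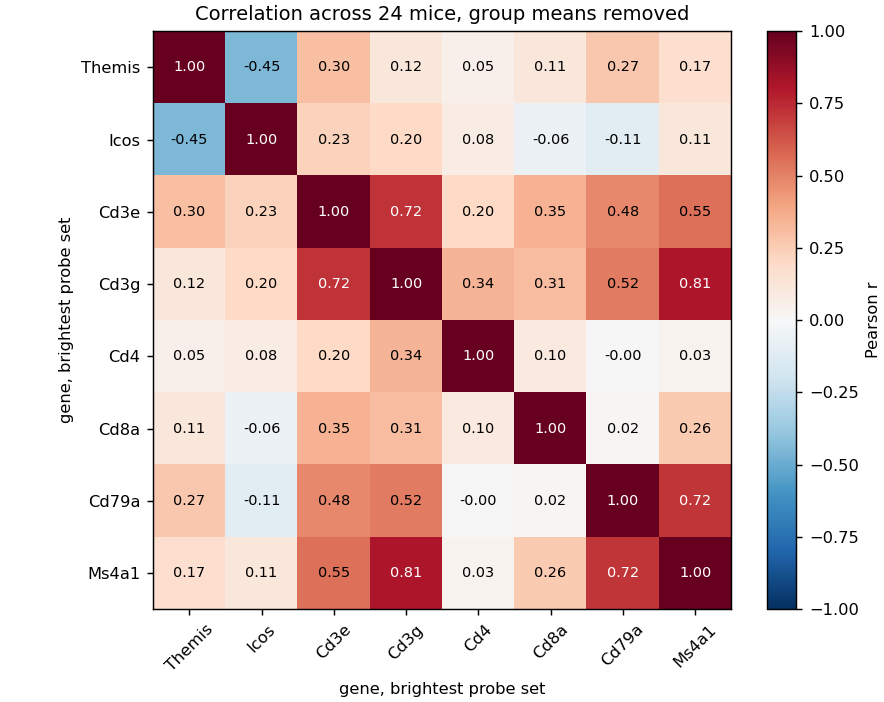
Pearson correlation over 24 mice of the residuals from the group means, for the brightest probe set of each measured gene (rows and columns), with blue for negative and red for positive values. The squares of Cd3e, Cd3g, Cd79a and Ms4a1 reach 0.72 to 0.81 for their closest pairs, while the row of Themis runs from -0.45 with Icos to 0.30 with Cd3e.

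A search over 11702 genes with a probe set above the median of all probe sets showed which genes varied most like Themis and most like Cd3e. The 10 genes with the highest residual correlation to Themis were Mogat1, Def8, Rnf115, Pnldc1, Gm7969, Hsd17b10, St8sia3, Fpgs, 9130409I23Rik and 4930480G23Rik (r from 0.852 to 0.787, 24 arrays). Of these, Mogat1 (1.04 and 0.91) and 9130409I23Rik (1.93 and 1.77) were also higher with both siRNAs by limma. Rnf115 (0.22) and 4930480G23Rik (0.84) were higher with siKeap1-1 only, and the rest did not pass. The 10 closest to Cd3e were Trav9d-3, Gimap3, Cxcr3, Myh11, Sfrp1, Icosl, Acta2, Trbv1, Ptger4 and Il7r (r from 0.885 to 0.785). The gene segments Trav9d-3 and Trbv1 belong to the T cell receptor, and Gimap3, Cxcr3 and Il7r are expressed in lymphocytes, as Ptger4 is among other cells, while Myh11 and Acta2 are genes of smooth muscle. In the search around Themis, 2218 genes had a higher r than Cd3e, 4360 than Cd8a, 5175 than Cd4 and 10961 than Icos.

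Among the B cell genes, neither differed from siControl past the threshold. Cd79a, a signalling chain of the B cell receptor, lay between 6.29 and 7.30 in siControl mice (median 6.81), between 6.40 and 6.96 in siKeap1-1 mice (median 6.68) and between 6.13 and 7.13 in siKeap1-2 mice (median 6.68). Its differences were -0.17 (95% interval -0.45 to 0.10, adjusted p = 0.478) and -0.16 (-0.43 to 0.11, adjusted p = 0.553). The values of both siRNA groups lay largely within those of the controls. Ms4a1, which encodes CD20, lay by its brighter probe set 1450912_at between 5.29 and 7.58 in siControl mice (median 6.56), between 5.37 and 6.69 in siKeap1-1 mice (median 6.28) and between 5.48 and 6.89 in siKeap1-2 mice (median 6.42). Its spread was the widest after that of Themis in the controls (SD 0.783), and the groups overlapped. The differences were -0.21 (95% interval -0.75 to 0.33) and -0.15 (-0.69 to 0.39), and those of the dimmer probe set 1423226_at were -0.22 and 0.10, none past the threshold.

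Other T cell markers, as a list, showed no rise like that of Themis. By the brightest probe set of each gene, 1 of 24 measured genes was higher and 1 lower with siKeap1-1, and 0 with siKeap1-2, where 9.49% and 6.6% of all 18193 genes passed (4.82% and 2.85% higher). Gimap3, a GTPase of lymphocytes, was lower by -0.74 with siKeap1-1 (adjusted p = 0.0239), and the dim Gimap5 of the same family was higher by 0.36 (adjusted p = 0.0331). Over its genes the median difference was -0.12 for siKeap1-1 and -0.05 for siKeap1-2, against 0.01 and -0.01 over all genes. The summed signal of the list lay between 11.39 and 12.53 in siControl, between 11.36 and 11.74 in siKeap1-1 and between 11.58 and 12.39 in siKeap1-2. Zap70 (mean 11.19) was the brightest gene of the list, ahead of Gimap3 (8.38), and weighs most in this sum. Its differences were -0.51 with siKeap1-1 and 0.04 with siKeap1-2 (limma, adjusted p = 0.111 and 0.931). The sum was therefore not read as a measure of T cell content. Of the known partners of Themis in T cell receptor signalling, such as Grb2 and Ptpn6, 0 of 10 measured genes passed with either siRNA by limma, with a median difference of -0.11 and -0.01. Plcg1 (mean 12.64), Ptpn11 (11.62) and Grb2 (11.13) were among the brightest of them, and whole-liver signals cannot be assigned to T cells.

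B cell markers outside Cd79a and Ms4a1 were lower where they passed. With siKeap1-1, 0 of 17 were higher and 4 lower, and with siKeap1-2 1 was lower, against 4.67% and 3.75% of all genes lower. The 4 were Jchain (-0.71, adjusted p = 0.0112) and Mzb1 (-0.59, adjusted p = 0.00899), which serve antibody secretion, the adaptor Blnk (-0.60, adjusted p = 0.0266) and the tetraspanin Cd37 (-0.39, adjusted p = 0.0139). Mzb1 was also lower with siKeap1-2 (-0.47, adjusted p = 0.0443). The summed signal of this list lay between 10.75 and 12.12 in siControl, between 10.50 and 11.64 in siKeap1-1 and between 10.59 and 11.40 in siKeap1-2.

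Of 15 measured genes of natural killer and cytotoxic cells, 1 passed with siKeap1-1, the transcription factor Tbx21, which was lower by -0.70 (adjusted p = 0.0227), and 0 with siKeap1-2, against 9.49% and 6.6% of all genes. Of 10 genes expressed in leukocytes at large, the actin-bundling protein Lcp1 was higher with both siRNAs (0.24 and 0.28, adjusted p = 0.0102 and 0.00529) and the other 9 did not pass, so that 1 of 10 stands against the same 9.49% and 6.6%. None of 6 measured chemokines and chemokine receptors of lymphoid cells passed with either siRNA by limma. The part of cell numbers in the changes of Themis, Icos and Cd4 was not tested.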

How the data were processed

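Liver RNA of 24 mice, 8 per siRNA group, was measured on Affymetrix Mouse Genome arrays. The authors deposited log2 signals made with RMA (background correction, normalization between arrays and a summary over the probes of each probe set), whose version is not stated in the sources used. The groups and replicate numbers come from the labels, and 0 columns were left unused.

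Apart from the 64 control probe sets, left out, every probe set was kept however dim. Group means were compared by limma (version 3.58.1, R 4.3.3) in 1 fit of all 3 groups with moderated variances and no covariate, with Benjamini-Hochberg adjustment over all 45037 probe sets and a threshold of 0.05. Of these, 34945 are annotated to 1 gene, 932 to several and 9160 to none. Lists use the brightest probe set of each gene. A summed signal is the log2 of the sum of unlogged signals over a list, so the brightest genes weigh most in it. Changes within a mouse were tested by exact permutation of 8 against 8 mice, and correlations with 100000 permutations within groups. With Lck not measured, these families hold 10 and 5 tests, not the 12 and 6 that were planned. The smallest SD of the difference between 2 arrays was 0.264, so no array was a copy of another. The number of arrays limits the precision. The procedure was tested on simulated data.

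The genes named are the 9 members, up to 4 genes per list past the threshold by size of change, and the 10 genes most like Themis and Cd3e. Members and lists were chosen with earlier results of these data known. Alternatives covered the arrays in the fit, centring, dim probe sets, array weights, replicate block, 18S and residual component as covariates, sets of controls, the mean over probe sets, the threshold (a fold over 2 with p under 0.01) and leaving out each array. Promoter sequences and motif counts came from RefSeq. Plots were made in Python 3.11.15 with matplotlib 3.10.9.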

Additional observations from a re-analysis of the deposited data

Results flagged for a closer look

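Within groups, 4 of 57 sets of 8 values held a mouse that lay apart from the other 7, where chance gives about 1 in 20 sets, or 2.85 of 57. Icos 1436598_at was 5.68 in siKeap1-1 replicate 5, with the next value at 6.33. Icos 1421930_at was 3.97 in siControl replicate 4, with the next at 4.75. Cd8a 1425335_at was 6.62 in siControl replicate 6, with the next at 6.19. Ms4a1 1450912_at was 5.37 in siKeap1-1 replicate 3, with the next at 6.13. Leaving out siKeap1-1 replicate 5 kept the call of Icos 1436598_at, which stayed between -1.62 and -1.43 with siKeap1-1 when any 1 array was left out.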

How the results depend on the processing

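The rise of Themis relative to Cd3e was not run with the 18S covariate, the residual component or array weights. The settings run were the mean over probe sets, either set of controls alone and same-numbered mice as pairs. Another T cell gene in place of Cd3e and leaving out each array were also run. Under these it kept its direction and its call, from 1.48 to 4.002 for siKeap1-1 and from 0.98 to 3.04 for siKeap1-2. The lowest came from the mean over probe sets, and the highest from Icos in place of Cd3e, which is a different contrast. The correlation of Themis and Cd3e turned within siKeap1-1 (-0.10) and siKeap1-2 (-0.33). The count of called probe sets with siKeap1-1 was 3 without dim probe sets and 3 genes by the mean over probe sets, and otherwise 4 to 7. With siKeap1-2 it was 5 with array weights, 0 with the 18S covariate, 5 with the first residual component, 1 gene by the mean over probe sets, 1 by a fold over 2 with p under 0.01, and otherwise 2 to 4. Between the siRNAs it was 1 with the residual component, Themis 1442022_at, and otherwise 0. The causes were not tested, except that fewer probe sets are tested without dim ones and that sets of controls leave fewer mice.

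The labels do not say whether the replicate numbers pair the mice. Of 24 correlations between same-numbered deviations 9 were over 0.1 (range -0.17 to 0.28), and mice with different numbers were not compared. With the replicate block the counts were 6, 4 and 0, the added call being Themis 1442022_at with siKeap1-2.

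All values that changed sign missed the threshold both ways. With the 18S covariate and siKeap1-1 these were Cd3e (0.30), Cd4 1427779_a_at (-0.0023), Cd8a 1425335_at (0.11) and 1440811_x_at (0.11) and Ms4a1 1450912_at (0.092), and with siKeap1-2 Cd8a 1440811_x_at (0.21) and Ms4a1 1450912_at (0.14). Against siControl replicates 1 to 3 and with siKeap1-1 they were Icos 1421930_at (-0.093), Cd3e (0.26), Cd8a 1425335_at (0.092), 1440164_x_at (0.11) and 1440811_x_at (0.16), Cd79a (0.036) and Ms4a1 1450912_at (0.39). With siKeap1-2 they were Icos 1421930_at (-0.11), Cd3g (0.099), Cd4 1427779_a_at (0.027), Cd8a 1440811_x_at (0.27), Cd79a (0.051) and Ms4a1 1450912_at (0.45). Against replicates 4 to 8 they were Cd8a 1451673_at (0.023) with siKeap1-1, and Cd3e (-0.19), Cd8a 1425335_at (-0.057) and 1440164_x_at (-0.095) with siKeap1-2. With siKeap1-2, array weights gave 0.022 for Cd4 1427779_a_at and the mean over probe sets gave -0.032 for Cd8a.

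Leaving out each array in turn gave 5 to 6 calls with siKeap1-1, 2 to 4 with siKeap1-2 and 0 between the siRNAs. Signs turned within -0.16 to 0.027 for Cd3e, -0.012 to 0.074 for Cd4 1427779_a_at, -0.094 to 0.013 for Cd8a 1425335_at, -0.091 to 0.036 for Cd8a 1451673_at and -0.011 to 0.18 for Icos 1421930_at with siKeap1-1. With siKeap1-2 they turned within -0.061 to 0.13 for Cd3e, -0.048 to 0.038 for Cd4 1427779_a_at, -0.030 to 0.10 for Cd8a 1425335_at, -0.035 to 0.10 for Cd8a 1440164_x_at, -0.029 to 0.16 for Icos 1421930_at, -0.0097 to 0.20 for Ms4a1 1423226_at and -0.31 to 0.012 for Ms4a1 1450912_at. Of the dim Themis probe sets, 1439719_at and 1442022_at kept their calls with siKeap1-1 whichever array was left out (highest adjusted p 0.0016 and 0.000157). Themis 1443192_at with siKeap1-1 ran from 0.50 to 0.70 (adjusted p 0.0135 to 0.0922) and was lost without siKeap1-1 replicates 1, 2, 4, 5, 6 or 8, siKeap1-2 replicate 8, or siControl replicates 1, 3, 6, 7 or 8. Themis 1439719_at with siKeap1-2 ran from 0.77 to 1.03 (adjusted p 0.00855 to 0.0643) and was lost without siKeap1-2 replicates 2, 3 or 6 or siControl replicates 1, 3, 6 or 7, and in a fit of only the groups compared. Themis 1442022_at with siKeap1-2 ran from 0.44 to 0.59 (adjusted p 0.0193 to 0.109) and was called without siKeap1-1 replicate 3, siKeap1-2 replicates 1 or 7, or siControl replicates 4 or 5.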

Other observations

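Among markers of other liver cells that passed the test, the largest change was that of the Kupffer cell receptor Timd4, which was lower by -1.52 with siKeap1-1 (adjusted p = 0.0015) and by -1.16 with siKeap1-2 (adjusted p = 0.0183). Of 9 Kupffer cell genes, Vsig4 was also lower with siKeap1-1 (-0.60, adjusted p = 0.018) and Marco was higher with siKeap1-2 (1.49, adjusted p = 0.0122). The summed signal of the Kupffer cell genes lay between 14.31 and 14.79 in siControl, between 13.98 and 14.74 in siKeap1-1 and between 14.13 and 14.96 in siKeap1-2. C1qb (mean 13.46) and Cd5l (12.08) were the brightest of them. Of 4 bile duct genes, Sox9 was higher with both siRNAs (0.87 and 0.96, adjusted p = 5.82e-05 and 2.7e-05). These counts, 2 of 9 Kupffer cell genes and 1 of 4 bile duct genes with each siRNA, stand against 9.49% of all genes that passed with siKeap1-1 and 6.6% with siKeap1-2. None of 6 neutrophil, 6 dendritic cell, 2 blood, 7 hepatocyte, 5 endothelial and 5 stellate cell genes passed with either siRNA by limma.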
